A study of Homo sapiens with 6 samples.

Results

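The genes of pericellular plasminogen activation and of the tissue factor pathway were followed in HK-2 cells after knockdown of PARP1. They were 9 genes chosen by name, PLAU, PLAUR, PLAT, SERPINE2, SERPINB2, F3, TFPI, TFPI2 and THBD, and 8 of them had a row among the 30403 genes of the count table. All 8 passed the filter on low counts. Expression of SERPINB2, which encodes plasminogen activator inhibitor 2, was not analysed here. HK-2 is an immortalised human line derived from proximal tubule epithelium. The shPARP1 group received a plasmid for a short hairpin RNA against PARP1 and the shCtrl group a control hairpin plasmid, both by lipid transfection, and cells were collected at 48 h. Each group had 3 libraries of polyadenylated RNA, and both groups came from this single cell line with transient transfection. The labels do not say whether replicates were separate cultures, so the p-values speak of the spread among libraries, and part of that spread may be technical.

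Plasminogen is a circulating zymogen that serine proteases cut into plasmin, which dissolves fibrin and cleaves matrix proteins and latent growth factors. Urokinase acts mainly at the cell surface, where its receptor concentrates it, and tissue-type activator acts mainly on fibrin. Inhibitors of the serpin and Kunitz families limit these proteases. Tissue factor is the membrane receptor that binds factor VII and starts coagulation, and tissue factor pathway inhibitor and thrombomodulin restrain that cascade. In the kidney, tubule epithelium is a known source of urokinase, and tissue factor is known from glomerular and tubular cells.

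PARP1 itself fell to 27.3 ± 1.37 CPM (counts scaled to library size, here with TMM, a correction for RNA composition) in shPARP1, against 261 ± 2.37 CPM in shCtrl (SD, n = 3 each), so that 10.4% of the control level was left. Library totals ran from 29387853 to 32809303 counts in shPARP1 and from 24429683 to 26269194 in shCtrl, and each shPARP1 library was deeper than each shCtrl library. No library stood apart from its group by its total. The epithelial keratin gene KRT18 had 359 to 364 CPM in shPARP1 and 239 to 241 CPM in shCtrl. Of the 16 proximal tubule and epithelial markers examined, 2 were called higher and 6 lower among 10 that were tested. The shares over all genes tested were 27.3% higher and 28.5% lower. Markers of the mature tubule were uneven. The brush border enzyme gene GGT1 had 230 to 244 CPM in shPARP1 and 274 to 301 CPM in shCtrl, while the endocytic receptor gene LRP2 had 1 count and HNF4A 12 counts over all 6 libraries. GGT1 was named after its values were seen.

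The tissue-type plasminogen activator gene PLAT rose 1.84-fold after PARP1 knockdown, while the urokinase gene PLAU, by far the more abundant, rose 1.07-fold and the urokinase receptor gene PLAUR fell to 0.935 of its control level. PLAT (ENSG00000104368; chromosome 8, minus strand, 42175233 to 42207724) is placed, like the other genes, by its GRCh38 coordinates. It had 92.4, 90.9 and 87.4 CPM in shPARP1 replicates 1 to 3, against 49.2, 49.0 and 48.9 CPM in shCtrl. The lowest shPARP1 library lay far above the highest shCtrl library, and the 3 shCtrl libraries were nearly equal. The log2 fold change was 0.88 (SE 0.05, 95% interval 0.79 to 0.98, edgeR adjusted p = 9.72e-24). By size of rise, PLAT stood 619th among the 16040 genes tested. In bulk RNA, more transcript per cell and a larger share of cells with the transcript cannot be told apart.

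**Figure D1:**
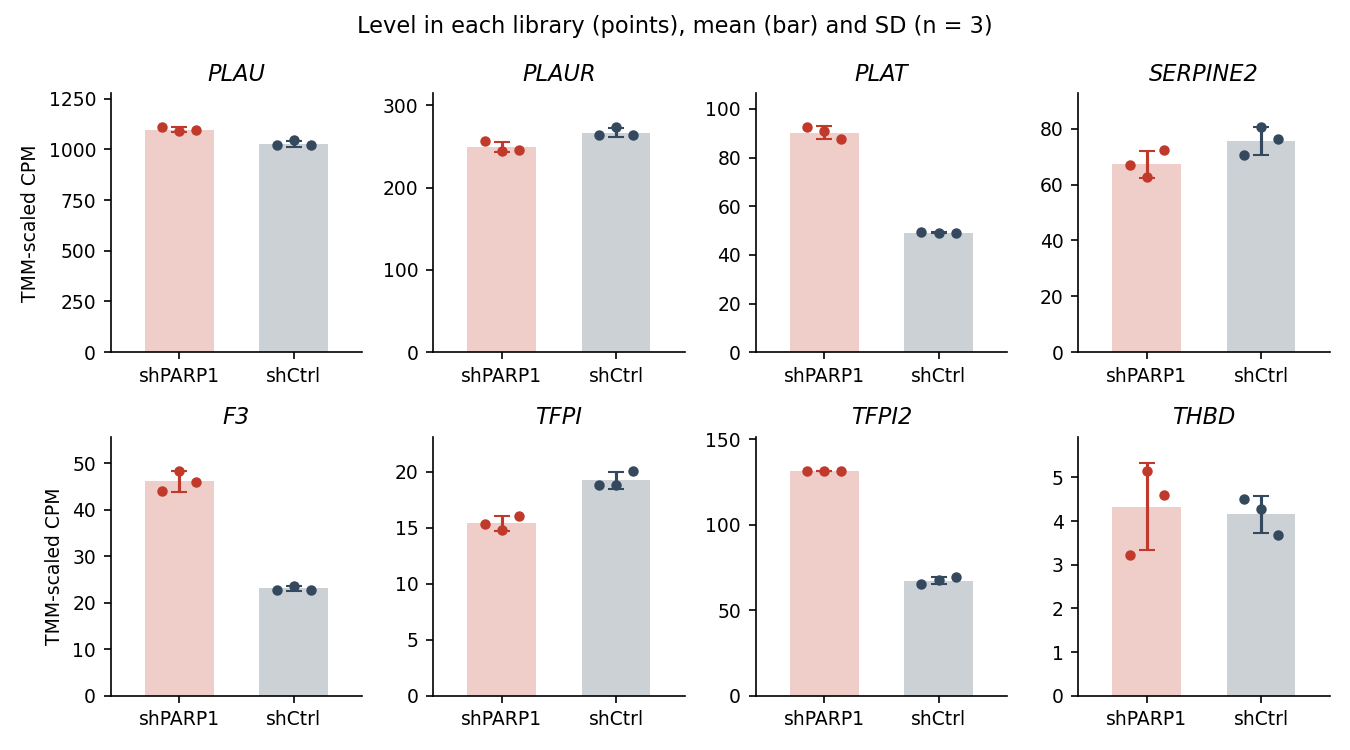
TMM-scaled CPM (vertical axis, from 0, a separate scale for each gene) of the 8 genes in shPARP1 (left) and shCtrl (right). Points are libraries, bars the mean and error bars the SD of 3 libraries. PLAT, F3 and TFPI2 stand clearly higher in shPARP1, and the points of SERPINE2 and THBD overlap between groups.

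PLAU (ENSG00000122861; chromosome 10, plus strand, 73909177 to 73917497) had 1109, 1088 and 1096 CPM in shPARP1, against 1020, 1044 and 1019 CPM in shCtrl. The groups did not overlap, but the gap was small beside the level, and the log2 fold change was 0.10 (SE 0.03, edgeR adjusted p = 0.0044). PLAUR (ENSG00000011422; chromosome 19, minus strand, 43646095 to 43670547), the membrane-anchored receptor that holds urokinase at the cell surface, had 257, 245 and 246 CPM in shPARP1 and 264, 273 and 263 CPM in shCtrl. All shPARP1 values lay below all shCtrl values, with a log2 fold change of -0.10 (SE 0.04, edgeR adjusted p = 0.0148). The PLAUR call ended with an offset for exon length and GC (-0.02, adjusted p = 0.535), with total counts in place of TMM (-0.07, 0.0861), on the FPKM values (-0.05, 0.257 with a pseudocount of 1), without shPARP1 replicate 2 (-0.08, 0.105) and without shCtrl replicate 2 (-0.07, 0.166). PLAU shares 916 bp of exon with C10orf55 on the opposite strand, a gene with 184 counts over all libraries, against 24409 to 36517 PLAU counts in each library. Whether strands were separated in counting is not given in the sources. TFPI shares 118 bp with AC007319.1 (13 counts over all libraries) and TFPI2 79 bp with AC002076.1 (21 counts), both on the opposite strand.

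Because the same library supplies both counts, the ratio of one gene to another does not depend on library scaling. The ratio of PLAU to PLAT counts was 12, 12 and 12.5 in shPARP1, against 20.7, 21.3 and 20.8 in shCtrl. For the ligand and its receptor, the PLAU to PLAUR ratios were 4.32, 4.45 and 4.45 in shPARP1 and 3.87, 3.82 and 3.87 in shCtrl. Urokinase thus had fewer transcripts per PLAT transcript and more per receptor transcript in every shPARP1 library than in any shCtrl library. Differences in mean log2 ratio were -0.78 and 0.19. In each case the exact permutation test, two-sided, gave p = 0.1, the smallest value that 3 libraries against 3 allow, and p = 0.1 after adjustment over the 5 ratios examined. The ratios carry no correction for exon length and GC. With that offset in the edgeR fit, the log2 fold change was 0.07 for PLAU, still called, and -0.02 for PLAUR, not called.

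On the initiating side of coagulation, F3, the gene for tissue factor, rose 2.0-fold. TFPI, the gene of its inhibitor, fell to 0.80 of its control level, while the TFPI paralog TFPI2 rose 1.95-fold. F3 (ENSG00000117525; chromosome 1, minus strand, 94529225 to 94541800) had 44.0, 48.4 and 46.1 CPM in shPARP1, against 22.8, 23.7 and 22.8 CPM in shCtrl. The groups were far apart, with a log2 fold change of 1.00 (SE 0.06, 95% interval 0.87 to 1.13, edgeR adjusted p = 1.99e-20). It was the 417th largest rise among the genes tested.

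TFPI (ENSG00000003436; chromosome 2, minus strand, 187464230 to 187565760) encodes the Kunitz inhibitor of factor Xa and of the complex of tissue factor with factor VIIa. Its values were 15.3, 14.8 and 16.1 CPM in shPARP1, against 18.8, 18.8 and 20.1 CPM in shCtrl. Every shPARP1 library was lower than every shCtrl library, and the log2 fold change was -0.32 (SE 0.08, 95% interval -0.49 to -0.16, edgeR adjusted p = 0.000636). Its log2 fold change lay between -0.35 and -0.22 in all alternatives.

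TFPI2 (ENSG00000105825; chromosome 7, minus strand, 93885396 to 93890991) encodes a matrix-associated Kunitz inhibitor that acts on plasmin and trypsin more than on the tissue factor complex. Its level was 132, 131 and 132 CPM in shPARP1, against 65.2, 67.4 and 69.2 CPM in shCtrl. The shPARP1 values were almost identical, with a coefficient of variation of 0.163%, and none of them came near the control values. At 3917 to 4331 counts per library, this spread is smaller than counting alone would give, so it is no measure of precision. The log2 fold change was 0.97 (SE 0.04, 95% interval 0.88 to 1.05, edgeR adjusted p = 2.98e-27), the 473rd largest rise. With an offset for exon length and GC it was 0.80, and F3 and PLAT were 0.90 and 0.98 in that fit, all 3 still called.

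Both tissue factor pathway inhibitor genes therefore moved apart. TFPI2 to TFPI ratios were 8.58, 8.87 and 8.18 in shPARP1, against 3.47, 3.58 and 3.44 in shCtrl. For F3 against its inhibitor TFPI, the ratios were 2.87, 3.28 and 2.86 in shPARP1 and 1.21, 1.26 and 1.13 in shCtrl. Neither pair of ranges overlapped, and the differences in mean log2 ratio were 1.29 and 1.32, each with an exact permutation p = 0.1, again the smallest possible.

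Promoter windows of RefSeq (GRCh38.p14, from 250 bases before to 50 after an annotated start) were found for 7 of the 9 genes, with more than one start for PLAU and SERPINE2. They were searched on both strands for the AP-1 element TGANTCA, the GC box GGGCGG, the TATAAA box and the kappaB consensus. Windows of 4 genes are shown 5′ to 3′ in the direction of the gene, those of F3 and TFPI2, which rose, of PLAUR, and of TFPI, the paralog of TFPI2 that fell. Capitals mark each AP-1 match.
F3: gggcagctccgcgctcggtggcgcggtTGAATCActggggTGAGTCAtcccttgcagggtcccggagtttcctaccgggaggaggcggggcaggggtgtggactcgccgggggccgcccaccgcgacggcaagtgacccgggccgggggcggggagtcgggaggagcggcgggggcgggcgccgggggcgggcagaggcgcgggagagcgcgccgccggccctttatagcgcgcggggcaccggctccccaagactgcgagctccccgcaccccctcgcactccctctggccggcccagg
TFPI2: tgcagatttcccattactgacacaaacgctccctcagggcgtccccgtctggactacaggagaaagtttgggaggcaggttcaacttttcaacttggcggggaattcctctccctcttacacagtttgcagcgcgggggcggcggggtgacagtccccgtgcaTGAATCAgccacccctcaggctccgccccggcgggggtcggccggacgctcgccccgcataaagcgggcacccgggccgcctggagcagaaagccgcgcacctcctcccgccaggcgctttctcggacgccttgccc
PLAUR: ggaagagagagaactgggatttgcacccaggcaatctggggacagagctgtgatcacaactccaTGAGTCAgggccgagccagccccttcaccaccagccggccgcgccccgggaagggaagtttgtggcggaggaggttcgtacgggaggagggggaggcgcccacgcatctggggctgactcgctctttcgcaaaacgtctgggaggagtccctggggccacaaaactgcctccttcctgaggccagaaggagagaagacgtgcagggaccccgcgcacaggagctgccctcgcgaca
TFPI: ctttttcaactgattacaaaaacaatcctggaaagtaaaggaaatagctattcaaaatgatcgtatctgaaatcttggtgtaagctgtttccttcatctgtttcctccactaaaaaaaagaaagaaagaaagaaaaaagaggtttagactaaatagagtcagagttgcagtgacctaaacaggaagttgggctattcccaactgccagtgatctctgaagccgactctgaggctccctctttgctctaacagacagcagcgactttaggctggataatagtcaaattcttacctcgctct
The windows are chr1:94541710-94542009 for F3, chr7:93890704-93891003 for TFPI2, chr19:43670120-43670419 for PLAUR and chr2:187554386-187554685 for TFPI, all on the minus strand.

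The F3 window held an AP-1 match at -223 to -217 and another at -210 to -204 from the start, and also 4 GC boxes and a TATAAA match on the minus strand at -28 to -23. In TFPI2 the AP-1 match lay at -87 to -81, between GC boxes at -114 and -65, and in PLAUR at -186 to -180. SERPINB2 had an AP-1 match at -102 and a TATAAA match at -30. The windows of PLAU, SERPINE2 and TFPI had none of the AP-1 letters, and TFPI had a match to no motif searched. The PLAU window with the downstream start held 3 GC boxes. Of all 35116 promoter windows in the table, 7.71% held an AP-1 match, 45.0% a GC box, 11.5% TATAAA and 7.73% the kappaB consensus, which no window of these genes held. AP-1 matches thus occurred both in F3 and TFPI2, which rose, and in PLAUR, which fell slightly. PLAU, also called higher, had none, and PLAT could not be searched. A match is a description of letters only.

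**Figure D2:**
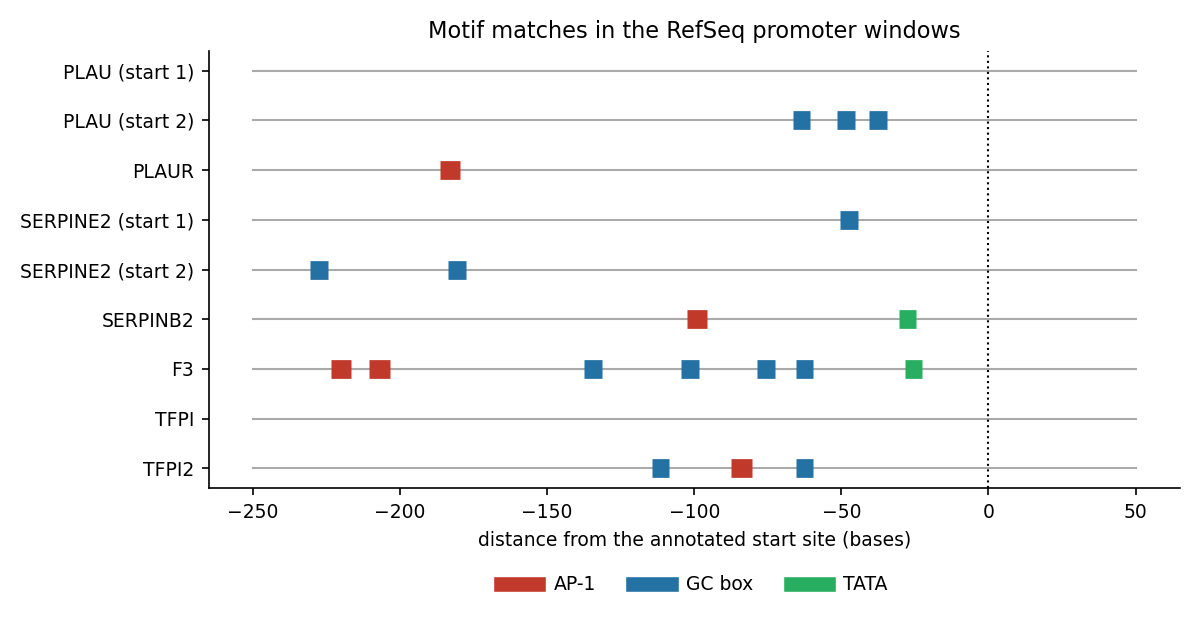
Matches to AP-1 (red), GC box (blue) and TATA (green) in RefSeq promoter windows of 7 genes. The horizontal axis is the distance in bases from the annotated start (dotted line), and PLAU and SERPINE2 have a window for each start, numbered by coordinate. F3 holds AP-1 matches at -223 and -210, TFPI2 at -87 and PLAUR at -186.

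Among the serpins in the set, SERPINE2 (ENSG00000135919; chromosome 2, minus strand, 223975112 to 224039319) encodes protease nexin-1, an inhibitor of thrombin, urokinase and plasmin. It had 67.0, 62.7 and 72.3 CPM in shPARP1, against 70.6, 80.6 and 76.3 CPM in shCtrl. The groups overlapped, since shPARP1 replicate 3 lay above shCtrl replicate 1. SERPINE2 fell by 0.17 on the log2 scale (SE 0.05, edgeR adjusted p = 0.00329). The call ended without shPARP1 replicate 2 (-0.12, adjusted p = 0.0734), without shCtrl replicate 2 (-0.11, 0.078) and on the FPKM values (-0.12, 0.217 with a pseudocount of 1). With the offset for exon length and GC the value was -0.11 and still called.

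THBD (ENSG00000178726; chromosome 20, minus strand, 23045633 to 23049741) encodes thrombomodulin, the receptor that turns thrombin toward activation of protein C. It was the least expressed of the genes, with 106, 159 and 137 counts in shPARP1 and 108, 111 and 96 counts in shCtrl. These are 3.22, 5.15 and 4.60 CPM in shPARP1 and 4.51, 4.28 and 3.69 CPM in shCtrl. The shPARP1 libraries spread on both sides of the controls, and no difference was detectable at this depth (log2 fold change 0.05, 95% interval -0.27 to 0.38, edgeR adjusted p = 0.804). Expressed as a ratio, the interval reached from 0.83 to 1.30. The ratio of THBD to F3 counts was 0.0732, 0.106 and 0.0999 in shPARP1, against 0.198, 0.180 and 0.162 in shCtrl, a difference of -0.97 in mean log2 ratio (exact permutation p = 0.1). THBD is best known from endothelium. The 7 endothelial markers with a row, of 10 examined, summed to between 4.80 and 5.46 CPM in shPARP1 and between 6.23 and 7.06 CPM in shCtrl, with 3 counts of CDH5 and 15 of PECAM1 over all 6 libraries.

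Taking the set as a whole, 4 of 8 genes were called higher (PLAU, PLAT, F3 and TFPI2) and 3 lower (PLAUR, SERPINE2 and TFPI). The lower calls numbered 1 on the FPKM values, without shPARP1 replicate 2 and without shCtrl replicate 2. Among all 16040 genes tested, 27.3% were called higher and 28.5% lower at an edgeR adjusted p under 0.05. Groups did not overlap for 4 genes upward and for 2 downward, PLAUR and TFPI, against 29.7% and 30.4% of all genes tested. Since 8937 genes were called in these libraries, a call by itself does not set a gene of this group apart. Among all genes tested, the quartiles of the log2 fold change were -0.35 and 0.32, and 5.24% of genes exceeded 0.8, as PLAT, F3 and TFPI2 did. PLAU, PLAUR, SERPINE2, TFPI and THBD all lay between those quartiles. In the main fit, with TMM scaling of all 6 libraries, no gene of the set passed a minimum of 2-fold. F3 lay at that limit, with a log2 fold change of 0.998. For F3 it was 1.003 with DESeq2 size factors, 1.028 with total counts and 0.994 with upper quartile scaling. Under TMM scaling it was 1.001 with at least 1 CPM in 3 libraries, 1.034 without shPARP1 replicate 1 and 1.03 without shCtrl replicate 2. The side on which F3 lay thus varied with the scaling, the filter and single libraries. By the TMM values 2.41% of the genes tested were called at least 2-fold higher.

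**Figure D3:**
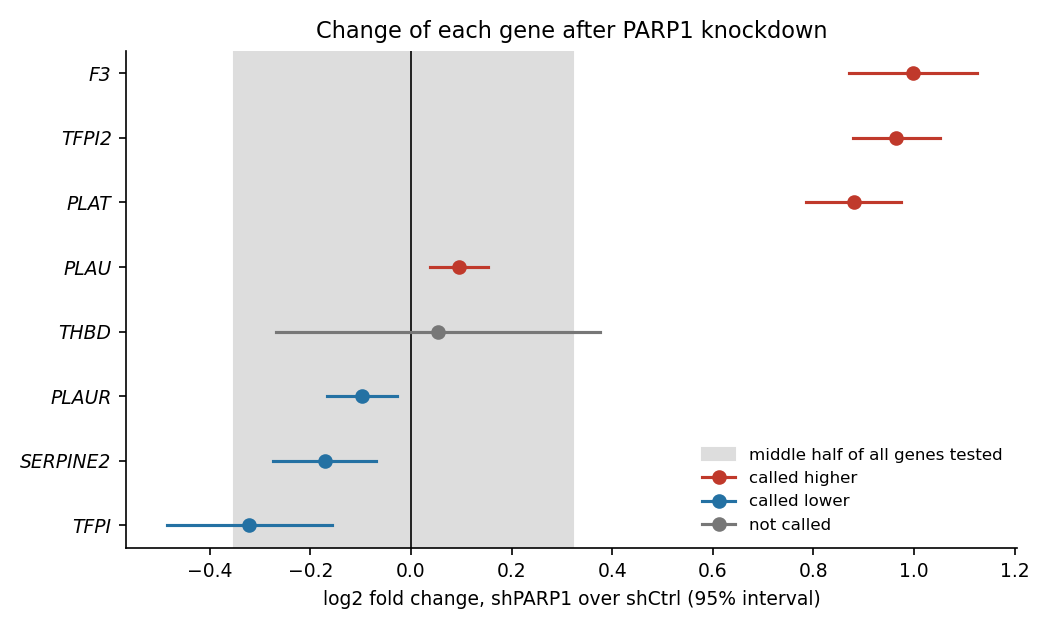
Log2 fold change, shPARP1 over shCtrl (horizontal axis), of each of the 8 genes (rows), with the 95% interval of the edgeR fit. The grey band runs from the lower to the upper quartile of all genes tested, -0.35 to 0.32. F3, TFPI2 and PLAT lie beyond it, at 1.00, 0.97 and 0.88, and the other genes within it.

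Levels of different genes are compared on the deposited FPKM values, which are per kilobase of transcript. PLAU stood first in both groups, with 366 ± 2.47 FPKM in shPARP1 and 332 ± 9.01 FPKM in shCtrl (SD, n = 3 each), and ranked 157th and 155th among the 30306 genes of that table. PLAUR came second with 101 ± 2.38 FPKM in shPARP1 and 105 ± 3.59 FPKM in shCtrl, where the group ranges overlapped. In shPARP1 the order went on with TFPI2 (48.1 ± 0.141 FPKM), PLAT (29.3 ± 0.762), SERPINE2 (19.1 ± 1.38), F3 (18.1 ± 0.92), TFPI (3.30 ± 0.146) and THBD (0.94 ± 0.216). In shCtrl, TFPI2 (23.9 ± 0.891 FPKM) was followed by SERPINE2 (20.9 ± 1.66), PLAT (15.4 ± 0.181), F3 (8.77 ± 0.309), TFPI (4.0 ± 0.157) and THBD (0.88 ± 0.0872). PLAT thus stood above SERPINE2 in shPARP1 and below it in shCtrl. Neighbours in these orders did not overlap in their ranges, except SERPINE2 and F3 in shPARP1.

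**Figure D4:**
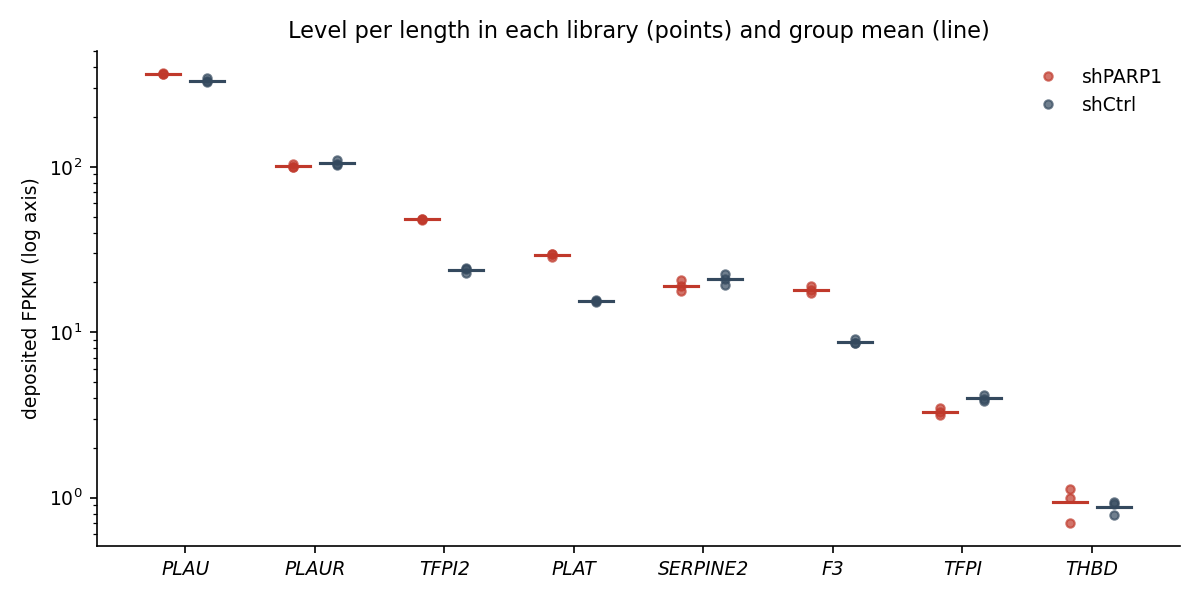
Deposited FPKM (log axis) of the 8 genes, ordered by their mean in shPARP1, with shPARP1 (red) left of shCtrl (dark blue). Points are libraries and lines group means. Levels span from about 366 FPKM for PLAU to 0.94 FPKM for THBD in shPARP1.

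Partners of these genes were taken from lists written for the pathway. Of 8 tested genes for plasminogen, its receptors and clearance receptors, 6 were called lower and 2 higher. The shares over all genes tested were 28.5% lower and 27.3% higher. The median log2 fold change of the list was -0.45, against -0.0073 over all genes tested. On the FPKM values the lower calls in that list numbered 3. The plasminogen gene PLG had only 4 counts over all libraries and was not tested. IGF2R, the mannose 6-phosphate receptor, which also binds the urokinase receptor, fell to 74.2 ± 0.951 CPM in shPARP1, against 331 ± 6.19 CPM in shCtrl. MRC2, the collagen receptor that associates with the urokinase receptor, fell to 348 ± 20.5 CPM in shPARP1, against 639 ± 34.6 CPM in shCtrl. LRP1, the endocytic receptor that clears complexes of activators with their inhibitors, fell to 149 ± 7.41 CPM in shPARP1, against 258 ± 9.45 CPM in shCtrl. Its log2 fold change was -0.79, and -0.51 with the offset for exon length and GC. S100A10, the annexin A2 partner that binds plasminogen, rose to 471 ± 0.951 CPM in shPARP1, against 329 ± 5.64 CPM in shCtrl (SD, n = 3 each throughout). Each of the 4 had groups far apart, with edgeR adjusted p values from 5.92e-46 for IGF2R to 1.04e-20 for S100A10. Of the remaining genes, PLGRKT was called higher (log2 fold change 0.78). SORL1 (-1.86, at 0.367 CPM in shPARP1 and 1.36 CPM in shCtrl), ANXA2 (-0.11) and ENO1 (-0.07) were called lower. The plasminogen receptor genes S100A10, PLGRKT, ANXA2 and ENO1 thus did not fall together, and the list median describes no common change. PLGRKT, SORL1, ANXA2 and ENO1 were named after their values were seen.

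Other serpins were mixed, with 3 higher and 4 lower of 10 tested (median log2 fold change -0.12). The shares over all genes tested were 27.3% higher and 28.5% lower. SERPINB6, an intracellular inhibitor, rose to 133 ± 3.04 CPM in shPARP1, against 96.9 ± 3.20 CPM in shCtrl (log2 fold change 0.46), and SERPINB8 rose to 5.10 ± 0.0943 CPM, against 2.56 ± 0.415 CPM (0.99, and 0.47 on the log2(FPKM + 1) scale). SERPINF2, the gene for the plasmin inhibitor alpha 2-antiplasmin, fell to 14 ± 0.423 CPM in shPARP1, against 23.3 ± 0.628 CPM in shCtrl (-0.73). SERPINA1, the gene for alpha 1-antitrypsin, fell to 76.8 ± 0.741 CPM, against 101 ± 2.21 CPM (-0.39). Their edgeR adjusted p values ran from 1.42e-14 to 4.81e-07 (n = 3 libraries per group).

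While 28.5% of all genes tested were called lower and 27.3% higher, the next list differed in its balance. Of 14 tested coagulation factor, thrombin receptor and protein C pathway genes, 8 were called lower and 2 higher (median log2 fold change -0.34). The higher calls numbered 1 without any one of the shPARP1 libraries or without shCtrl replicate 1, and also on the FPKM values, without a filter on low counts, with the DESeq2 Wald test and with the offset for exon length and GC. F2R, the thrombin receptor PAR1, fell to 18.2 ± 0.975 CPM in shPARP1, against 42.2 ± 2.20 CPM in shCtrl (-1.21, edgeR adjusted p = 1.53e-22). PROS1, the gene for the anticoagulant protein S, fell to 13.1 ± 0.377 CPM, against 23.0 ± 1.56 CPM (-0.82), and the vitamin K reductase gene VKORC1 to 190 ± 8.51 CPM, against 251 ± 3.97 CPM (-0.40). ANXA5, which encodes the phosphatidylserine-binding anticoagulant annexin A5, rose to 610 ± 19.6 CPM in shPARP1, against 504 ± 21.9 CPM in shCtrl (0.28). Among the genes of circulating factors, F12 (factor XII) had 31.8 ± 0.559 CPM in shPARP1 and 33.3 ± 1.91 CPM in shCtrl and was not called (edgeR adjusted p = 0.399), whereas F9, F10 and F11 had 1, 1 and 2 counts over all libraries. F2, at a low level, was called lower, with 1.36 ± 0.131 CPM in shPARP1 and 2.08 ± 0.0738 CPM in shCtrl (-0.61, edgeR adjusted p = 0.0205). F8, FGB and PROC were tested and not called. F12, F2, F8, FGB and PROC were named after their values were seen.

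Membrane serine proteases, Kunitz inhibitors and urokinase substrates were called lower for 9 of 11 tested and higher for none, with a median log2 fold change of -0.72. The shares over all genes tested were 28.5% lower and 27.3% higher. PRSS8, the gene for prostasin, a membrane protease of renal epithelium that SERPINE2 inhibits, fell to 97.9 ± 3.92 CPM in shPARP1, against 215 ± 1.69 CPM in shCtrl (-1.13). The Kunitz domain precursor genes APP and APLP2 fell to 230 ± 7.36 and 476 ± 3.84 CPM in shPARP1, against 590 ± 16.5 and 915 ± 4.33 CPM in shCtrl. MET, the receptor of the growth factor HGF that urokinase can activate, fell to 67.2 ± 1.83 CPM, against 110 ± 2.87 CPM (-0.72). HGF itself was not among the genes tested, and MET is counted here as its receptor, not as a urokinase substrate. Adjusted p values from edgeR ran from 9.68e-39 for APP to 3.81e-21 for MET (n = 3 libraries per group). TFPI2, a Kunitz inhibitor too, rose as described above.

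**Figure D5:**
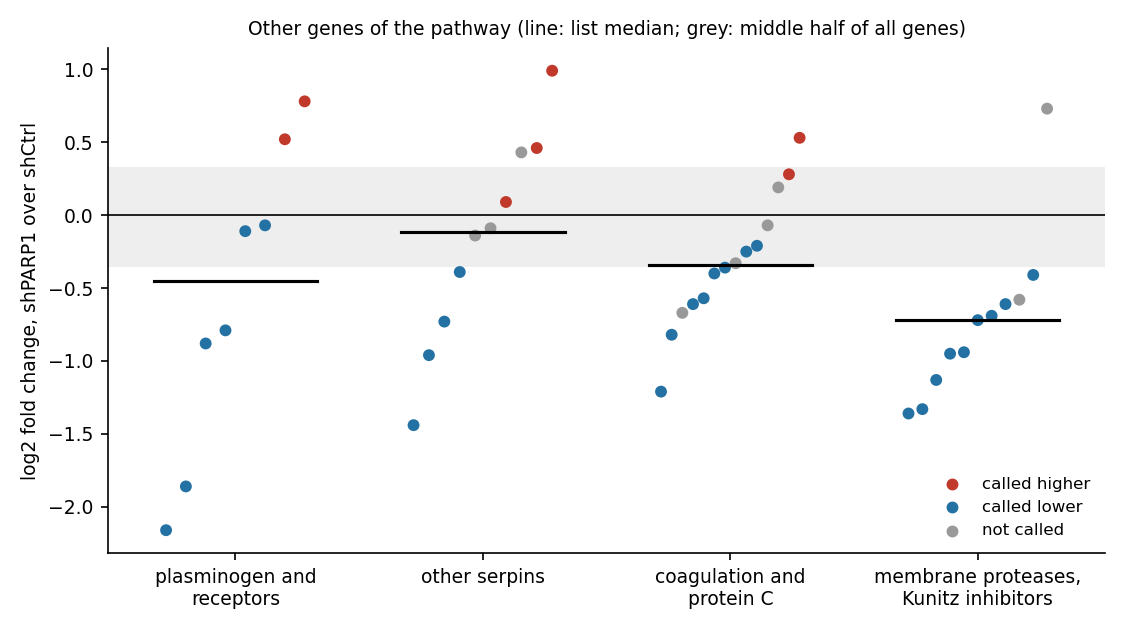
Log2 fold change, shPARP1 over shCtrl (vertical axis), of each tested gene in the 4 pathway lists. Points are genes in order of their change, black lines list medians (-0.45, -0.12, -0.34 and -0.72 from left to right) and the grey band the quartiles of all genes tested.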

How the data were processed

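Per the labels, libraries came from a stranded mRNA kit with paired-end sequencing. The submitters' processing notes name bcl2fastq, TopHat2, edgeR and the build GRCh38. How reads were assigned to genes (tool, strandedness, gene models) is not given in the sources used here. The authors deposited read counts per gene, not normalized, and FPKM values rounded to 2 decimals.

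Genes and lists were chosen with earlier results of these data known. All counts were fitted with edgeR 4.0.16 (R 4.3.3): filterByExpr (16040 of 30403 genes kept), TMM scaling, a robust quasi-likelihood F test of shPARP1 against shCtrl with 3 libraries each, and Benjamini-Hochberg adjustment over all genes tested, called under 0.05. Ratios of counts used exact permutation of libraries, after adding 0.5. At these totals 3 counts are 0.0914 to 0.123 CPM. Pairs of libraries within a group differed by more than sampling noise (chi-square per degree of freedom 2.54 to 4.55), and each counted as a replicate.

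Alternatives were DESeq2 1.42.0 (test, and size factors), upper quartile and total count scaling, no filter and at least 1 CPM in 3 libraries, limma 3.58.1 (voom on counts, and trend on log2 FPKM with a pseudocount of 1 or 0.1), blocking on the replicate number, requiring at least a 2-fold change, an offset for exon length and GC content, and leaving out each library. Lengths, GC and coordinates came from GENCODE release 29 (GRCh38), matched to 97.4% of genes. Described partners are up to 4 called genes per list by smallest p-value. Expression of SERPINB2 was not analysed here.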

Additional observations from a re-analysis of the deposited data

How the results depend on the processing

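Of 33 named genes, each under 18 alternatives, 549 of 561 results other than the 2-fold minimum kept their direction and their side of the threshold. The exceptions were PLAUR and SERPINE2, which lost their calls 10 times in all, as given above, and THBD, which was never called. THBD turned to -0.091 without shPARP1 replicate 2 and to -0.027 without shCtrl replicate 3, with a range of -0.091 to 0.233 over the left-out libraries. The count of genes of the set called higher was 4 and the count called lower 3. With the 2-fold minimum on the main fit both were 0, and 1039 genes were called in the whole table in place of 8937, by construction. On the FPKM values with either pseudocount 1 gene, TFPI, was called lower, and the cause was not tested. In those fits the median shift in log2 fold change from the main fit, over all genes, was 0.042 with a pseudocount of 1 and 0.044 with 0.1. The log2 fold changes in the main fit were 0.095 for PLAU and -0.098 for PLAUR. Leaving out libraries gave 1 to 3 lower calls, 1 without shPARP1 replicate 2 or without shCtrl replicate 2. Of the lists, plasminogen and its receptors had 3 lower calls on the FPKM values in place of 6.

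With the replicate number as a block, 9060 genes were called, and the set again had 4 higher and 3 lower. Deviations of same-numbered libraries correlated at 0.036, -0.004 and 0.036. With 3 libraries per group, these values cannot show whether the numbers pair the libraries. Replicates 1 and 3 of shPARP1 correlated best with their own number, and replicate 2 did not. THBD varied by 23.1% between shPARP1 libraries (coefficient of variation), at 106 to 159 counts each.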

Other observations

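Genes whose profile over the 6 libraries came closest to each gene of the set are given as a description, by the root mean square difference in log2 CPM relative to the shCtrl mean, among 9544 genes of at least 5 CPM. For PLAT they were SEMA7A, a membrane-anchored semaphorin (difference 0.020), and FOSL1, an AP-1 subunit (0.022), each with a log2 fold change of 0.89. For F3 they were CCDC86 (0.032) and the translation initiation factor gene EIF1AX (0.045). For TFPI2 they were the ribosomal protein gene RPS26 (0.021), which has pseudogenes that can share its reads, and the mitochondrial deacylase gene SIRT5 (0.035), both with a log2 fold change of 0.96. PLAU came closest to the glycolytic enzyme gene TPI1 (0.013) and to SERPINH1 (0.014), the serpin that serves as a collagen chaperone, both with a log2 fold change of 0.09. TFPI came closest to ZNF623 (0.015) and PDE10A (0.024). By its construction this measure is smallest for genes with a like size of change.

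Markers of leukocytes and platelets were uneven in level. The 9 with a row, of 11 examined, summed to between 31.3 and 34.9 CPM in shPARP1 and between 41.3 and 45.2 CPM in shCtrl, most of it from CSF1R, with 20.6 ± 1.62 CPM in shPARP1 and 26.4 ± 2.23 CPM in shCtrl (SD, n = 3 each). CD14, a receptor for bacterial lipopolysaccharide, had 2.72 ± 0.414 CPM in shPARP1 and 8.14 ± 0.78 CPM in shCtrl. On the log2(FPKM + 1) scale its log2 fold change of -1.58 was -1.05. Of the 5 tested, CD14 and CSF1R were called lower and CD68 higher, beside 28.5% and 27.3% of all genes tested. Among the endothelial markers, TIE1 was called lower, with 0.876 ± 0.259 CPM in shPARP1 and 2.10 ± 0.254 CPM in shCtrl (log2 fold change -1.25, and -0.28 on the log2(FPKM + 1) scale), and ROBO4, ERG and ESAM were not called. The part of such cells in the values of THBD and F3 was not tested.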
